A study of Mus musculus with 4 samples.

Results

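The cells described here were the early T-lineage cells of the embryonic mouse thymus that carried Rag1 and Cd3g transcripts. They were chosen by a gate on unique molecular identifiers (UMIs, which count captured RNA molecules). A cell was kept if it held at least 200 genes and no more than 10% of its UMIs on mitochondrial genes. A kept cell was a member if it had 1 or more UMIs of Ptprc (CD45, found on blood cells), 2 or more of Rag1, 1 or more of Cd3g, none of Csf1r or Pdgfra and no more than 1 of Epcam. This gave 721 members of 29510 kept cells, from 31105 deposited cells.

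Single-cell RNA sequencing of thymic lobes from embryonic day 13 to 13.5 embryos gave 4 libraries, 1 for each group. The Tbx1+/+ carrier library came from embryos with both wild-type Tbx1 alleles. The other 3 libraries came from Tbx1neo2/neo2 embryos, in which a neomycin cassette within an intron of Tbx1 leaves reduced wild-type Tbx1 expression and the thymus is hypoplastic. These 3 differed in what the pregnant dam had been injected with, which was the ETOH carrier, minoxidil (a vasodilator and potassium channel opener) or PGE2 (prostaglandin E2). The dam of the Tbx1+/+ library also received the ETOH carrier, so no library was uninjected. All dams were Tbx1+/neo2 intercrosses, the lobes were digested with trypsin, hypoplastic lobes were pooled, and how many embryos each library held was not given in the sources used here.

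T cell progenitors that settle the fetal thymus lose other lineage options stepwise under Notch signals from the epithelium. They first carry Kit and genes of the stem and progenitor state such as Lyl1 and Spi1. Bcl11b, a transcription factor needed for T-lineage commitment, then comes on, and Rag1 with Rag2 starts to cut T cell receptor genes. Ptcra encodes the pre-T cell receptor alpha chain, which pairs with a rearranged beta chain and the CD3 proteins encoded by Cd3d, Cd3e and Cd3g. The first thymocytes of the fetus also give rise to gamma-delta T cells and innate-like cells.

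Each group was 1 library, so no difference between groups has a replicate check, and no test across samples was possible. Intervals below are 95% exact intervals, Clopper-Pearson for shares and Poisson for levels, and cover counting error only. The depth differed between libraries. Members numbered 270 in the Tbx1+/+ carrier, 132 in the Tbx1neo2/neo2 carrier, 135 in the Tbx1neo2/neo2 minoxidil and 184 in the Tbx1neo2/neo2 PGE2 library. Their median UMIs per cell were 38633, 33687, 67549 and 50267.5 in the same order, and their median detected genes were 5729, 5132.5, 6889 and 6002.5. The minoxidil members were the deepest and the Tbx1neo2/neo2 carrier members the shallowest. Summed over members the libraries held 11457661, 4300625, 9558250 and 9352641 UMIs, and a level is given as CPM, the UMIs of a gene scaled to a total of 1000000. The 3-count floor was 0.262, 0.698, 0.314 and 0.321 CPM.

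Tbx1, the gene the allele targets, was at 2.28 CPM over all kept cells of the Tbx1+/+ carrier, 2.33 of the Tbx1neo2/neo2 carrier, 2.46 of minoxidil and 1.14 of PGE2. In Epcam epithelium it was at 2.15, 1.25, 1.46 and 0.332 CPM, in Pdgfra stroma at 3.48, 2.53, 4.02 and 2.79, and the members held 9, 6, 8 and 3 UMIs. The counts do not tell wild-type transcripts from others of the gene, so they do not check the genotype labels.

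The libraries also differed in the sex of their cells. Xist, transcribed from the inactive X chromosome of female cells, was at 174.2 CPM in the members of the Tbx1+/+ carrier library, 292.5 in the Tbx1neo2/neo2 carrier, 699.6 in minoxidil and 0.428 in PGE2. The members of the minoxidil library had no UMI of 4 Y-linked genes, so they were female cells, those of the PGE2 library were male cells, and those of both carrier libraries were mixed. Sex and treatment cannot be told apart in these libraries beyond the values given for cells of one sex below. Pairs of libraries shared between 4 and 32 cell barcodes among kept cells, no pair shared a barcode between members, and 4 members had a barcode that another library also held.

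The members carried the T-lineage markers beyond the 2 genes of the gate. Cd3d, the CD3 delta chain, was at 116.2 CPM in the Tbx1+/+ carrier, 187.6 in the Tbx1neo2/neo2 carrier, 136.6 in minoxidil and 228.8 in PGE2. In Kit cells of the same libraries it lay between 0.665 and 2.11. Kit cells were Ptprc cells under the same limits with no Rag1 or Cd3g, 2 or more Kit UMIs and no Klrd1, 515 in all. Mzb1, a chaperone of the endoplasmic reticulum, was at 282.2, 378.5, 275.6 and 384.1 CPM, and Rhoh, a haematopoietic GTPase that T cell receptor signalling needs, at 306.0, 323.4, 316.5 and 286.8. Rhoh varied least of the given markers between the 4 libraries.

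Beside the Kit cells, the members were higher in T-lineage genes in every library. The log2 ratio over Kit cells, with the lowest and highest library, was 6.76 to 7.56 for Cd3d, 5.07 to 7.31 for Cd3e, 3.75 to 6.93 for Bcl11b, 3.55 to 6.82 for Ptcra, 3.39 to 4.30 for Themis and 3.04 to 4.99 for Lef1. Kit cell counts under 3 were set to 3 for these ratios. Tubb3, a tubulin, at 4.81 to 5.69, Insl5, an insulin-like peptide, at 4.80 to 5.66, Cd163l1 at 4.76 to 7.48 and Nlrp6, an inflammasome gene, at 4.28 to 7.49 were also far apart. Genes lower in the members were Cd52 at -2.93 to -1.64, Serpinb1a at -2.07 to -1.48, Spi1 at -2.10 to -1.28, Tyrobp at -1.72 to -0.70 and Cd34 at -0.91 to -0.66. Both classes were cut by Rag1, Cd3g and Kit, so these values describe the gates and were not tested.

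**Figure D1:**
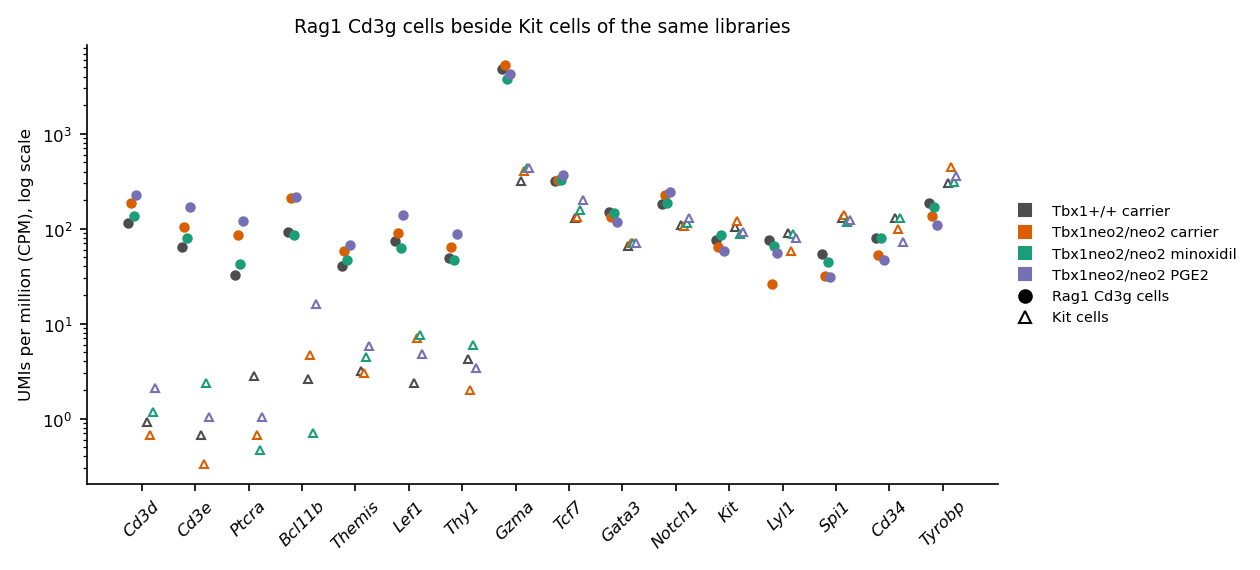
Level in CPM on a log axis for 16 genes in the Rag1 Cd3g cells (filled circles) and the Kit cells (open triangles) of the 4 libraries, coloured by library. Cd3d, Cd3e and Ptcra lie below 3 CPM in the Kit cells and above 30 in the members, whereas the ranges of Lyl1 and Cd34 overlap.

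A granzyme signature was present throughout. Gzma, a serine protease of cytotoxic granules, was at 4853.3 CPM in the Tbx1+/+ carrier, 5242.5 in the Tbx1neo2/neo2 carrier, 3761.9 in minoxidil and 4246.8 in PGE2, and by UMIs, uncorrected for length, it ranked eighth of the members' genes outside ribosomal and mitochondrial ones. The genes before it were Ptma, the interferon-induced Ifitm1, Eef1a1, Actb, Hsp90ab1, Ppia and Tmsb4x, mostly housekeeping genes. After thinning each cell to 10000 UMIs, 99.6%, 100%, 97.0% and 97.8% of members had a Gzma UMI. It was also found in 38.9%, 37.8%, 31.6% and 45.2% of Kit cells and 9.28%, 4.47%, 8.34% and 7.17% of Pdgfra stroma cells. Of 18 innate-like lymphoid genes, 8 reached 20 CPM in each library, namely Gzma, Plac8, Nkg7, Fcer1g, Gzmb, Tyrobp, Id2 and Zbtb16, and the list summed to 7899.2, 8005.1, 6303.4 and 6513.9 CPM. Among its other genes, Klrd1 reached at most 0.418 CPM and Eomes and Xcl1 were at 0 in all 4 libraries. The 45 Klrd1 cells, under the same limits without Rag1 and Cd3g, were chosen by 2 or more Klrd1 UMIs and numbered 32, 7, 1 and 5. They had Id2 at 483.9 to 1263.7 CPM and Cd3d at no more than 5.24, values that rest on very few cells in 3 of the libraries.

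Genes of the B, macrophage and myeloid lineages were low. Erythroid genes were higher and are given below. B-lineage genes summed to 23.4, 18.4, 16.9 and 15.6 CPM with Cd79b the most abundant and Pax5 at 0 in every library, and macrophage and myeloid genes to 21.1, 14.4, 21.0 and 8.23 CPM with Fcgr3 the most abundant. Dendritic genes summed to 345.0, 292.5, 306.3 and 309.0 CPM, of which Bst2 was the most abundant, at 260.8 CPM in the Tbx1+/+ carrier. Markers of later thymocytes were near 0. Dntt and Cd4 had no UMI in any thinned member, and Cd8a only in 1.54% of the Tbx1neo2/neo2 carrier members. Taken as 3 counts of the total, 0 of 268, 130, 135 and 182 thinned members allow a share of up to 1.12%, 2.31%, 2.22% and 1.65% of cells with a UMI at this depth, which does not limit the share of cells expressing the gene.

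The promoters of 3 genes of this programme are shown, because Ptcra differed most between the libraries of the genes that encode the pre-T cell receptor complex, Rag1 is a gene of the gate and Cd3d lies beside the other gate gene, Cd3g. Each is the 250 bases before the RefSeq start on GRCm38.p6, 5′ to 3′ on the strand of the gene, with matches of CAGNTG on either strand in capitals, so that a match on the other strand reads CANCTG. These are E-box letters that E proteins such as the product of Tcf12 bind. Ptcra spans chromosome 17 from 46755663 to 46763712 on the minus strand, and its window is chr17:46763713-46763962. Rag1 spans chromosome 2 from 101638282 to 101649501 on the minus strand, with the window chr2:101649533-101649782. Cd3d spans chromosome 9 from 44981786 to 44987339 on the plus strand, with the window chr9:44981536-44981785.
Ptcra: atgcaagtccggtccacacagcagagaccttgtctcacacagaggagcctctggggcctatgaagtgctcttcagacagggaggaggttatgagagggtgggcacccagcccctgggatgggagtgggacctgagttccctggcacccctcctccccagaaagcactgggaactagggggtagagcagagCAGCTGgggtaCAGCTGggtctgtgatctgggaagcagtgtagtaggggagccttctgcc
Rag1: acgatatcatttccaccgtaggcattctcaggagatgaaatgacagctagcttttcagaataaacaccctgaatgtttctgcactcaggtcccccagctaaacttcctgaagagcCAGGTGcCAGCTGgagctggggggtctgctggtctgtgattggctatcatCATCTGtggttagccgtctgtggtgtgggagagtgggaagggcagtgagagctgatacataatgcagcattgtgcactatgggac
Cd3d: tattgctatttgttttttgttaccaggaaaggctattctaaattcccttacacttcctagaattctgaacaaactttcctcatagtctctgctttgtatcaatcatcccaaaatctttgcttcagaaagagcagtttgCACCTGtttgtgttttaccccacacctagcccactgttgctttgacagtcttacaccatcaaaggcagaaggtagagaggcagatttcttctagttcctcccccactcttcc
The Ptcra window held 2 matches, 60 and 49 bases before the start, the Rag1 window 3, at 135, 128 and 85 bases, the Cd3d window 1, at 112 bases, and the Cd3g window 2, at 148 and 35 bases. Of 32851 windows of 250 bases, 44.8% held at least 1 match, so a match is common. Cd3g and Cd3d are transcribed away from each other from starts 1355 bases apart, and Cd3e lies farther along the same chromosome from 44998740 to 45009627.

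How common the members were depended on how they were counted. Of all kept cells they made up 2.35% (2.08 to 2.65) in the Tbx1+/+ carrier, 1.24% (1.03 to 1.46) in the Tbx1neo2/neo2 carrier, 4.22% (3.55 to 4.97) with minoxidil and 4.43% (3.83 to 5.10) with PGE2. The Tbx1neo2/neo2 carrier had the lowest share and the treated libraries the highest, and the intervals of the treated libraries overlapped. The order of the carrier libraries turned in Xist cells but not in cells with Y-linked UMIs. Among Xist cells the share of kept cells was 2.65% (2.02 to 3.41) in the Tbx1+/+ carrier, 4.45% (3.18 to 6.03) in the Tbx1neo2/neo2 carrier and 4.88% (4.10 to 5.76) with minoxidil, so the Tbx1neo2/neo2 carrier was above the Tbx1+/+ carrier and overlapped minoxidil. Among cells with Y-linked UMIs it was 3.66% (3.14 to 4.23), 1.42% (1.12 to 1.77) and, with PGE2, 5.38% (4.58 to 6.26). Cells with too few UMIs of these genes are left out of both. In the Tbx1neo2/neo2 carrier 877 kept cells were Xist cells and 5430 had Y-linked UMIs. Xist was at 50.6 CPM in the Pdgfra stroma of that library, against 257.6 in the epithelium and 292.5 in the members. Its Xist cells can thus hold another mix of cell types than its other cells. How far this sets the shares of kept cells was not tested. Of the Ptprc cells that met the Csf1r, Epcam and Pdgfra limits, 1583, 541, 362 and 501 cells, members made up 17.1% (15.2 to 19.0), 24.4% (20.8 to 28.2), 37.3% (32.3 to 42.5) and 36.7% (32.5 to 41.1). Here the Tbx1+/+ carrier was lowest. It was at 18.5% among Xist cells against 19.5% in the Tbx1neo2/neo2 carrier and 37.5% with minoxidil, and at 19.1% among cells with Y-linked UMIs against 31.4% in the Tbx1neo2/neo2 carrier and 36.5% with PGE2.

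Because the gate counts UMIs, a deeper cell passes its minimums more easily and fails its upper limits more easily. Thinning each cell to 10000 UMIs before gating, without shallower cells, changes both, and left 93, 98, 71 and 241 members of 1417, 543, 454 and 755 Ptprc cells under the limits. Members then made up 6.56% (5.33 to 7.98), 18.0% (14.9 to 21.5), 15.6% (12.4 to 19.3) and 31.9% (28.6 to 35.4) of those Ptprc cells. The minoxidil library was then below the Tbx1neo2/neo2 carrier, with overlapping intervals, and PGE2 was above all the others. Of kept cells the thinned shares were 1.01% (0.814 to 1.23), 1.27% (1.03 to 1.54), 2.47% and 6.63%. The Tbx1+/+ carrier was then lowest, with an interval that overlapped that of the Tbx1neo2/neo2 carrier.

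The Epcam limit removed many cells with the same genes. Cells that failed it alone numbered 211 in the Tbx1+/+ carrier, 106 in the Tbx1neo2/neo2 carrier, 156 in minoxidil and 487 in PGE2, more than the members in the last 2 libraries. With the limit lifted the shares of Ptprc cells were 20.1%, 33.9%, 48.5% and 61.7%, and those of kept cells 4.19%, 2.23%, 9.09% and 16.2%. The removed cells carried Cd3d at 159.9, 342.4, 204.1 and 464.5 CPM and Ptcra at 77.0, 153.9, 93.2 and 255.9, both above the members of the same library. Their Epcam was at 165.5, 136.5, 79.1 and 123.2 CPM. Krt8, a keratin of epithelial cells, was at 299.2 CPM in those of the Tbx1+/+ carrier, 94.0 in the Tbx1neo2/neo2 carrier, 23.6 in minoxidil and 57.8 in PGE2, and Psmb11, the thymic epithelial proteasome subunit, at 24.2, 8.80, 2.89 and 9.67. The part of epithelial RNA in these droplets was not tested. Among the members, 126, 52, 73 and 109 cells had 1 Epcam UMI.

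**Figure D2:**
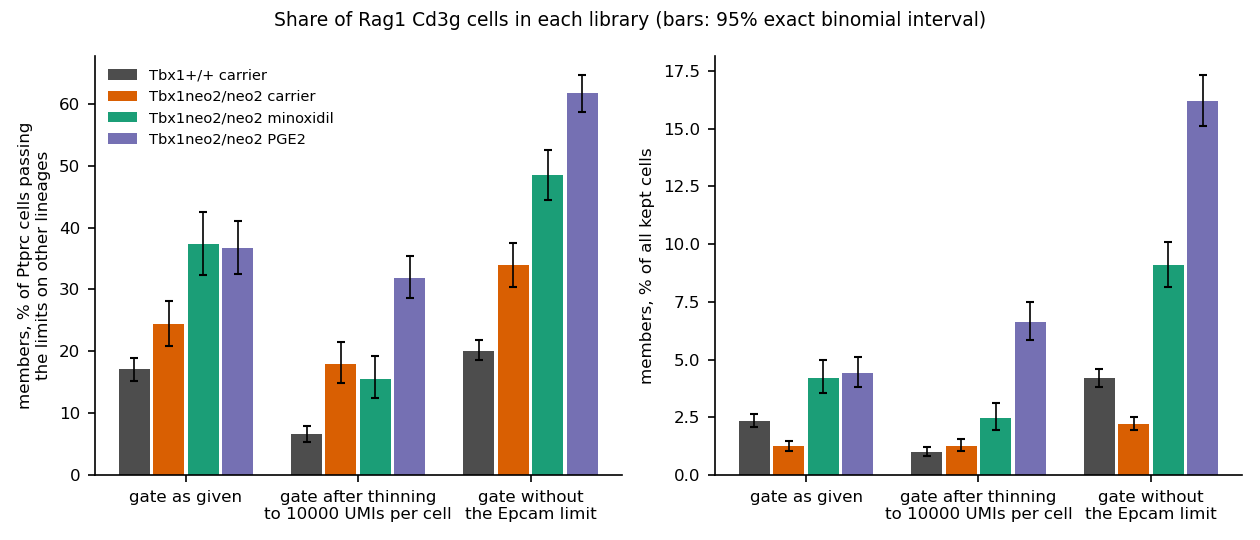
Share of Rag1 Cd3g cells in each library, in percent of Ptprc cells under the gate's limits on other lineages (left) and of all kept cells (right), under the gate as given, after thinning and without the Epcam limit. Bars are shares with 95% exact binomial intervals; PGE2 is above both carrier libraries under all 3 gates, whereas among Ptprc cells minoxidil is above the Tbx1neo2/neo2 carrier under the gate as given and without the Epcam limit and below it after thinning.

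Cells just inside and just outside the gate were as follows, by the genes that chose the members. Members with exactly 2 Rag1 UMIs numbered 81, 20, 21 and 21, and cells left out with 1 Rag1 UMI 150, 49, 26 and 37. Cd3d was at 74.8, 90.1, 23.4 and 9.92 CPM in the former and 37.2, 44.3, 32.5 and 30.4 in the latter. Cells with 2 or more Rag1 UMIs but no Cd3g numbered 30, 12, 11 and 6. They had Cd3d at 1.63, 0, 0 and 3.46 CPM and Spi1 at 107.9, 103.2, 99.1 and 96.9, yet Gzma at 925.2, 803.1, 230.5 and 913.5.

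Of the T cell receptor complex and its signalling, Cd3g, a gene of the gate, was at 957.1 CPM in the Tbx1+/+ carrier, 1213.1 in the Tbx1neo2/neo2 carrier, 875.6 in minoxidil and 1389.2 in PGE2. Cd3e, the CD3 epsilon chain, was at 63.5, 103.0, 79.5 and 167.7. As for Cd3d, PGE2 was highest and the Tbx1neo2/neo2 carrier next. Ptcra was at 32.6 CPM (29.3 to 36.0), 85.3 (76.8 to 94.5), 42.8 (38.7 to 47.1) and 119.1 (112.2 to 126.3). No 2 of these intervals overlapped, but they leave out the spread between cells. The intervals of the shares of cells with a Ptcra UMI, given below, overlapped between neighbouring libraries. Lck, the kinase that starts receptor signalling, was at 154.1, 202.3, 158.1 and 216.1, and the adaptor Lat at 84.0, 93.7, 82.4 and 143.8. Lat thus stood out in PGE2 alone. Themis, which tunes receptor signals, was at 40.3, 58.8, 47.1 and 67.1. Zap70, a signalling kinase, and Cd247, the zeta chain, stayed at or below 3.49 and 14.5 CPM.

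Among the recombination genes, Rag1, again a gene of the gate, was at 98.5, 188.3, 108.3 and 178.7 CPM. Rag2, its partner, was at 64.9, 78.1, 71.2 and 77.6 and varied far less between libraries. Of the transcription factors, Bcl11b was at 92.7, 212.3, 86.2 and 216.9 CPM, which split the libraries into a low pair, Tbx1+/+ carrier and minoxidil, and a high pair, Tbx1neo2/neo2 carrier and PGE2. Bcl11b was also at 25.3 CPM in Pdgfra stroma of the Tbx1neo2/neo2 carrier library, against 1.15 in the Tbx1+/+ carrier, 0.849 in minoxidil and 0.698 in PGE2. Tcf7 and Gata3, which act before Bcl11b, were at 316.3, 324.8, 325.0 and 364.3 CPM and at 148.7, 133.2, 145.8 and 118.0, a narrow range. Lef1, the relative of Tcf7, was at 74.7, 89.1, 61.9 and 138.7 CPM, and Ets1 at 31.9, 33.5, 33.6 and 56.7, both highest in PGE2.

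Some genes of the stem and progenitor state ran the other way in the Tbx1neo2/neo2 carrier. Of 8 compared, 4 were past 1.5-fold lower there than in the Tbx1+/+ carrier, against 3.70% of all 5507 genes compared. Lyl1, a transcription factor of early progenitors, was at 76.7 CPM (71.7 to 82.0) in the Tbx1+/+ carrier, 26.3 (21.7 to 31.6) in the Tbx1neo2/neo2 carrier, 65.7 (60.7 to 71.0) with minoxidil and 54.9 (50.2 to 59.8) with PGE2. Spi1, which encodes PU.1, was at 53.9, 32.1, 44.3 and 31.0 and Cd34 at 80.4, 53.2, 80.2 and 46.4. For these the Tbx1+/+ carrier and minoxidil libraries were high and the other pair low. Kit was at 76.5, 64.2, 86.4 and 58.6 CPM, and Cd44 at 20.7, 10.2, 18.8 and 14.5. Among surface genes of the next stages, Il2ra, the CD25 chain, was at 151.9, 194.2, 127.0 and 209.0 CPM and Thy1 at 49.5, 63.7, 46.6 and 88.5.

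Of the Notch genes, the receptor Notch1 was at 182.6, 226.2, 188.0 and 244.5 CPM and its target Hes1 at 228.8, 232.1, 252.9 and 257.3. Dtx1, another target, was at 64.9 CPM in the Tbx1+/+ carrier, 94.6 in the Tbx1neo2/neo2 carrier, 78.5 in minoxidil and 92.0 in PGE2, while Nrarp, a target that dampens the signal, was at 89.6, 69.3, 90.3 and 68.8. Dtx1 was higher and Nrarp lower in the Tbx1neo2/neo2 carrier and PGE2 libraries than in the other pair. Among cytokine receptors, Il7r, which early thymocytes need to survive, was at 83.9, 94.6, 85.2 and 86.5 CPM and its partner Il2rg at 59.4, 72.3, 79.3 and 64.0. Il7r varied little over the 4 libraries.

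Of the homing receptors, Itga4, the integrin alpha 4 chain, was at 408.6, 463.9, 469.3 and 329.0 CPM, Selplg, an adhesion molecule, at 119.6, 113.5, 129.9 and 124.1 and Cxcr4 at 45.2, 36.5, 61.6 and 44.1. Ccr9, the receptor for the thymic chemokine Ccl25, stayed at or below 1.92 CPM in every library. Genes linked to innate-like and gamma-delta fates were present too. Zbtb16, which encodes PLZF, was at 37.1, 31.6, 33.5 and 22.1 CPM, lowest in PGE2, and Cd163l1 at 103.2, 205.6, 140.3 and 141.1. Id3, induced by receptor signals, was at 20.2, 18.8, 7.01 and 2.14 CPM.

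**Figure D3:**
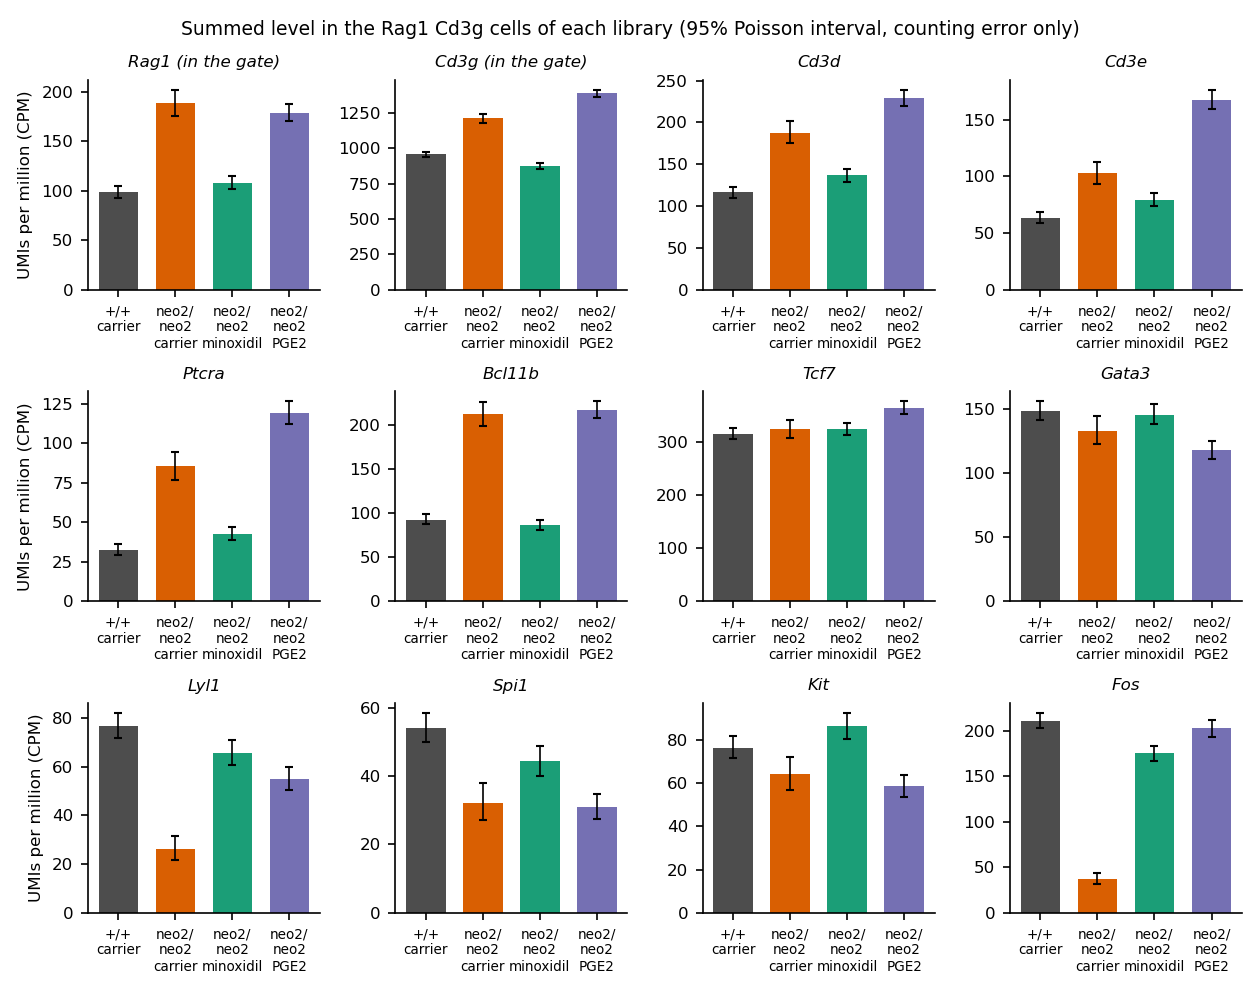
Summed level of 12 genes in the Rag1 Cd3g cells of each library, in CPM, with 95% exact Poisson intervals for counting error. Ptcra and Bcl11b are high in the Tbx1neo2/neo2 carrier and PGE2 libraries, Lyl1 and Fos are lowest in the Tbx1neo2/neo2 carrier, and Tcf7 and Gata3 vary little.

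Within each library the members ranged from Kit-bearing to Ptcra-bearing cells. At 10000 UMIs per cell, a Ptcra UMI was found in 17.2% (12.8 to 22.2) of members of the Tbx1+/+ carrier, 35.4% (27.2 to 44.2) of the Tbx1neo2/neo2 carrier, 25.9% (18.8 to 34.2) of minoxidil and 44.5% (37.2 to 52.0) of PGE2. In Pdgfra stroma, thinned alike, it was found in 0.215%, 0.524%, 0% and 0.512%. Unthinned, the shares of members were 38.5%, 49.2%, 43.7% and 60.3%. A Kit UMI without Ptcra was found in 42.5% (36.5 to 48.7), 29.2% (21.6 to 37.8), 37.8% (29.6 to 46.5) and 25.3% (19.1 to 32.2) of thinned members, Ptcra without Kit in 11.2%, 20%, 16.3% and 28.6%, and both in 5.97%, 15.4%, 9.63% and 15.9%. Kit without Ptcra was thus most frequent in the Tbx1+/+ carrier and least in PGE2, with intervals that overlapped between neighbours in this order. In stroma a Kit UMI was found in 5.15%, 2.76%, 5.77% and 6.48%.

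**Figure D4:**
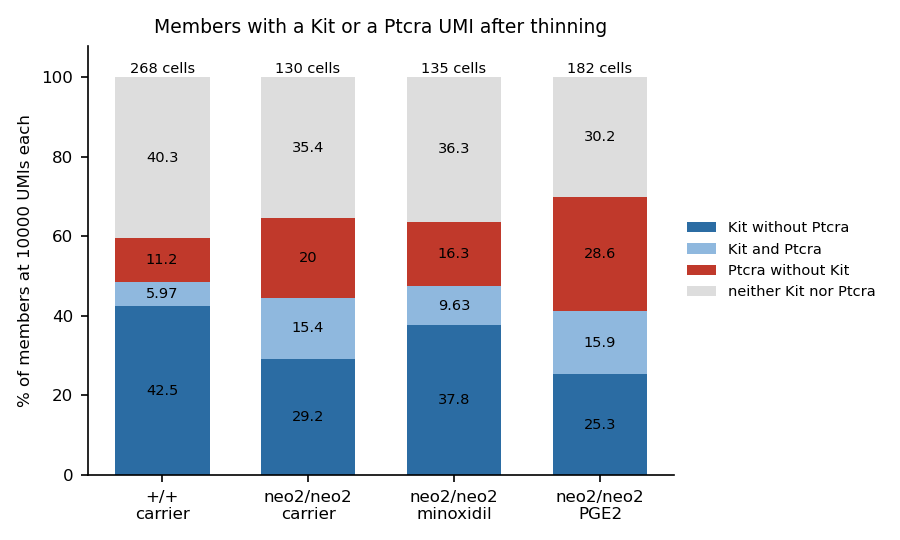
Share of Rag1 Cd3g cells with a Kit or a Ptcra UMI after thinning every cell to 10000 UMIs, stacked to 100% per library, with the number of cells above each bar. The red segment, Ptcra without Kit, goes from 11.2% in the Tbx1+/+ carrier to 28.6% in PGE2.

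Other stage genes ordered the libraries in different ways at this depth. A Bcl11b UMI was found in 45.1% (39.1 to 51.3) of thinned members of the Tbx1+/+ carrier, 73.1% (64.6 to 80.5) of the Tbx1neo2/neo2 carrier, 40% (31.7 to 48.8) with minoxidil and 70.9% (63.7 to 77.4) with PGE2. Unthinned, these were 64.4%, 91.7%, 68.9% and 92.9%. The high and the low pair of libraries did not overlap. In thinned Pdgfra stroma the shares were 1.18%, 17.6%, 1.10% and 0.683%, so that of the Tbx1neo2/neo2 carrier stood apart there too. A Lyl1 UMI was found in 48.5% (42.4 to 54.7), 20.8% (14.2 to 28.8), 43.7% (35.2 to 52.5) and 34.6% (27.7 to 42.0) of thinned members, against at most 0.858% of stroma cells. Cd3e was found in 38.1%, 50.8%, 48.9% and 68.1% (60.8 to 74.8), and the last interval lay above the other 3 libraries. Thy1, a general T-lineage surface protein, was found in 34.0%, 37.7%, 31.1% and 51.1% (43.6 to 58.6), and in 3.27%, 2.48%, 3.44% and 9.39% of stroma cells, highest in PGE2 in both.

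Single cells varied widely around these levels. The median cell of the Tbx1+/+ carrier had Cd3d at 37.1 CPM, with quartiles of 0 and 161.9, and the median cell of PGE2 was at 98.1, with quartiles of 19.4 and 468.3. Bcl11b had medians of 51.8, 192.7, 48.4 and 200.7 CPM per cell and was at 0 in 35.6%, 8.33%, 31.1% and 7.07% of members. Ptcra was at 0 in 61.5%, 50.8%, 56.3% and 39.7% and its median cell was above 0 only in PGE2, at 27.1 CPM. Il2ra was spread in a like way, with a median of 19.7, 27.4, 16.7 and 120.7 CPM and an upper quartile of 235.4, 289.5, 226.9 and 342.4. Lck and Tcf7 were more even, and Lck was at 0 in at most 0.741% of members.

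Cd3d, Cd3e, Bcl11b and Spi1, which took no part in the split by Kit and Ptcra, followed it. Cd3d was at 75.4 CPM in the Kit without Ptcra members of the Tbx1+/+ carrier, 79.4 in the Tbx1neo2/neo2 carrier, 63.0 in minoxidil and 57.6 in PGE2. In the Ptcra without Kit members it was at 273.4, 496.2, 441.9 and 504.1. Cd3e was at 42.6, 68.5, 66.3 and 77.4 CPM against 126.5, 179.7, 180.1 and 310.1, and Bcl11b at 85.6, 146.3, 84.0 and 137.8 against 141.5, 308.0, 147.6 and 345.6. Spi1 was lower in the Ptcra without Kit members, at 46.0, 13.4, 25.4 and 12.7 CPM against 60.9, 36.6, 37.0 and 43.5. Within each of these classes Bcl11b was higher in the Tbx1neo2/neo2 carrier and PGE2 libraries than in the other pair. Lyl1 was also lowest in the Tbx1neo2/neo2 carrier in both, at 25.7 and 13.4 CPM, against 83.6 and 58.4 in the Tbx1+/+ carrier. Il2ra, Tcf7 and Id2 had no consistent order between the classes. These classes hold between 22 and 114 cells per library.

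The first comparison asks how the members of hypoplastic Tbx1neo2/neo2 lobes differed from those of Tbx1+/+ lobes, both under the ETOH carrier. A gene was compared if it reached 20 CPM in 1 of the 2 libraries, and was called higher or lower if the ratio passed 1.5-fold. Of 5507 genes, 78 (1.42%) were higher and 204 (3.70%) lower in the Tbx1neo2/neo2 carrier, 5.12% in either direction, and the median log2 ratio was -0.07. The split moved with the scaling, to 100 higher and 143 lower with TMM factors and 113 and 128 with median-of-ratios size factors. With no minimum level the counts were 3749 higher and 1793 lower. There a count of 0 was set to 3 counts, which is 0.698 CPM in the Tbx1neo2/neo2 carrier and 0.262 in the Tbx1+/+ carrier. Genes with few UMIs in 1 library and none in the other can be called by these floors. This split therefore does not describe expression.

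Of 20 listed genes of CD3 and pre-TCR signalling, 11 were compared, 4 were higher and none lower, with a median of 0.39. The 4 were Ptcra at a log2 ratio of 1.39 (1.18 to 1.60), the adaptor Skap1 at 1.59 (1.22 to 1.97), Cd3e at 0.70 (0.53 to 0.87) and Cd3d at 0.69 (0.56 to 0.82). Of 8 genes compared on the stem and progenitor list of 17, 4 were lower and none higher, with a median of -0.55. They were Lyl1 at -1.55 (-1.84 to -1.26), Cd44 at -1.02, Spi1 at -0.75 and Cd34 at -0.59. Only 1 of 21 T-lineage transcription factors compared was higher, Bcl11b at 1.20 (1.07 to 1.32), and the median of that list was 0.03. Among 10 Notch genes, Ptcra and the receptor Notch3, at 0.81, were higher, with a median of 0.20. Of 9 recombination genes, Atm, a kinase that senses DNA breaks, was higher at 0.75, as was the gate gene Rag1 at 0.93, with a median of 0.28.

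Of 6 homing receptors 2 were higher, with a median of 0.08, among them Itgae, an integrin that binds epithelial cadherin, at 0.85. Of 10 stage surface genes, Cd44 and Cd52, the latter at -0.79, were lower, with a median of -0.19, and none of 10 cytokine receptor and signalling genes was called, with a median of 0.19. Of 4 gamma-delta genes compared of 18 listed, Cd163l1, a scavenger receptor of gamma-delta cells, was higher at 0.99 and Tmem176b, a membrane protein, lower at -0.62. Rearranged T cell receptor segments were not analysed here.

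After the gate was applied to thinned cells, Ptcra was at 0.53, Cd3d at 0.56 and Cd3e at 0.38 in this comparison, all 3 no longer past 1.5-fold. Skap1 was at 0.85 and Bcl11b at 0.63, both still past it, while Lyl1 was at -0.96 and Spi1 at -0.97. Within Xist cells the ratio was 2.38 for Ptcra, 1.29 for Bcl11b and -1.71 for Lyl1, and within cells with Y-linked UMIs 0.88, 1.12 and -1.34, so the direction was the same in cells of each sex.

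The second comparison sets minoxidil against the ETOH carrier among Tbx1neo2/neo2 members. It shares the Tbx1neo2/neo2 carrier library with the first and the third, so the 3 are not independent. Of 5497 genes, 180 (3.27%) were higher and 65 (1.18%) lower with minoxidil, 4.46% in either direction, with a median of 0.05. Between Xist cells 409 were higher and 145 lower. With no minimum level 1461 were higher and 3482 lower, counts that again rest in part on the floors. On the CD3 and pre-TCR list 2 of 11 were lower, Ptcra, 1.99-fold lower (log2 interval -1.20 to -0.79), and Skap1 at a log2 ratio of -0.78, and the median was -0.36. Bcl11b was lower at -1.30 (-1.44 to -1.16), the only factor called of 20. Of 7 stem and progenitor genes, Lyl1 at 1.32 (1.03 to 1.62) and Cd34 at 0.59 were higher, and the median was 0.46. Of 6 homing receptors 1 was higher, Cxcr4 at 0.76, and 1 lower, with a median of 0.06. On the Notch list 2 of 10 were lower, Ptcra and Il2ra, on the cytokine list 1 of 10, Il2ra, and on the recombination list 1 of 9, the gate gene Rag1 at -0.80. No gamma-delta gene was called of 2 compared. Of 9 stage surface genes, Cd69, an early activation marker, at 0.89 and Cd52 at 0.77 were higher, and Il2ra was lower at -0.61, but it was at 0.31 after gating on thinned cells and at 0.07 between Xist cells. Ptcra stayed at -0.84, Bcl11b at -0.85 and Lyl1 at 0.75 after gating on thinned cells, where Skap1 was at -0.44, and at -1.51, -1.24 and 1.42 between the Xist cells.

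With PGE2 against the ETOH carrier, 88 of 5390 genes (1.63%) were higher and 79 (1.47%) lower, 3.10% in either direction, with a median of 0.01. TMM factors gave 127 higher and 65 lower. No minimum level gave 928 higher and 3675 lower, which also rest in part on the floors. Of 11 CD3 and pre-TCR genes, Cd3e at 0.70 (0.55 to 0.86) and Lat at 0.62 (0.46 to 0.78) were higher and none was lower, with a median of 0.20. Ptcra was at 0.48 and Bcl11b at 0.03, both within 1.5-fold, but Ptcra was past it at 0.95 between cells with Y-linked UMIs, at 0.89 after gating on thinned cells and at 0.90 with no Epcam limit. Of 19 transcription factors, Ets1 at 0.76 (0.49 to 1.04) and Lef1 at 0.64 (0.47 to 0.81) were higher. Between cells with Y-linked UMIs these were 0.69 for Cd3e, 0.69 for Lat, 0.82 for Ets1 and 0.56, within 1.5-fold, for Lef1. Of 7 stem and progenitor genes, Lyl1 was higher at 1.06 and Meis1 lower at -0.77. Lyl1 was at 0.05 after gating on thinned cells, and Lat at 0.46, whereas Ets1 was at 1.39, Cd3e at 0.99 and Lef1 at 0.93. None of 9 recombination, 10 Notch, 9 stage surface, 10 cytokine and 6 homing genes was called, and of 4 gamma-delta genes Tmem176b was higher at 0.85. Gzmb, a second granzyme, was lower at -0.84, from 208.3 to 116.4 CPM. Ets1 was also higher with PGE2 than with the carrier in Pdgfra stroma, at 1.27, and at -0.13 in the epithelium.

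**Figure D5:**
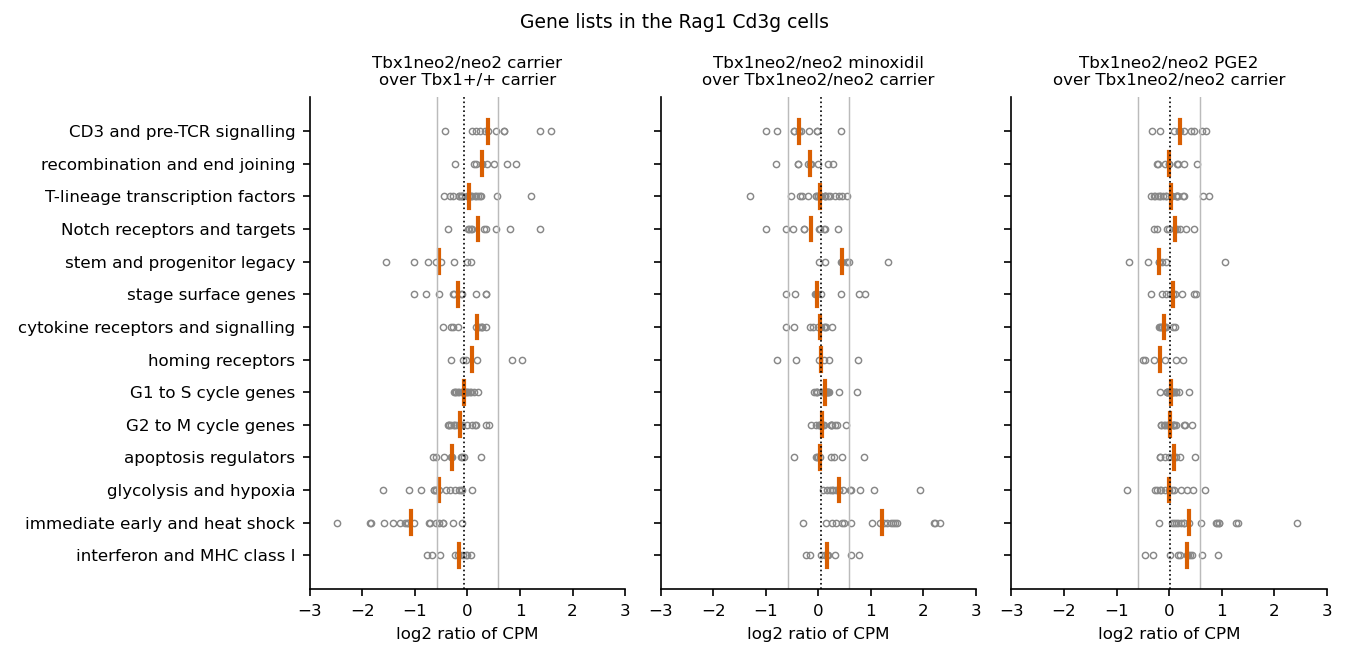
Log2 ratio of CPM for the compared members of 14 gene lists (open circles) and the median of each list (orange), in the 3 comparisons. The dotted line is the median of all genes compared and the grey lines mark 1.5-fold; the immediate early list lies to the left in the first comparison and to the right in the second.

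The list with the most genes past the threshold was that of immediate early and heat shock genes, which respond within minutes to stimulation or handling. Fos was at 211.0 CPM in the Tbx1+/+ carrier, 37.4 in the Tbx1neo2/neo2 carrier, 175.1 in minoxidil and 202.6 in PGE2, and Dusp1, a phosphatase induced with it, at 150.7, 50.5, 142.0 and 125.8. The Tbx1neo2/neo2 carrier alone was low. In that library 13 of 18 were lower than in the Tbx1+/+ carrier, with a median of -1.07, against 3.70% of all genes compared. With minoxidil 12 of 18 were higher than in the Tbx1neo2/neo2 carrier, with a median of 1.22, and with PGE2 8 of 17, with a median of 0.38. Of all genes compared, 3.27% were higher with minoxidil and 1.63% with PGE2. Fos, at -2.49, 2.23 and 2.44 in the members in the 3 comparisons, moved in the same direction in other cells. In Pdgfra stroma it was at -2.90, 3.22 and 3.26 and in the Epcam epithelium at -2.07, 1.67 and 2.36. What set these ratios was not tested.

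Genes of glycolysis and hypoxia were lower in the Tbx1neo2/neo2 carrier for 7 of 15, with a median of -0.55, against 3.70% of all genes compared. Aldoa was at 874.0, 470.9, 712.7 and 424.8 CPM and Ldha at 1339.1, 860.3, 1124.1 and 735.5, so the Tbx1+/+ carrier and minoxidil were high and PGE2 was as low as the Tbx1neo2/neo2 carrier or lower. Bnip3, a mitophagy gene induced by low oxygen, was at -1.60 in the first comparison, and Slc2a1, a glucose transporter, at -1.11. With minoxidil 5 of 14 were higher and none lower, with a median of 0.39, against 3.27% of all genes higher. With PGE2 1 of 13 was higher, Vegfa at 0.68, and 1 lower, P4ha1 at -0.81. Of all genes 1.63% were higher and 1.47% lower with PGE2, so these counts of 1 do not set the list apart. Aldoa in the first comparison was at 0.13 in the stroma, -0.37 in the epithelium and -0.57 in the Kit cells, against -0.89 in the members. With minoxidil Pgk1 was at 1.93 in the members, 1.42 in the stroma and 2.23 in the epithelium.

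Few cell cycle genes passed the threshold, but few of all genes did. Of all genes compared, 5.12% passed it in either direction between the carrier libraries, 4.46% with minoxidil and 3.10% with PGE2. At these shares, lists of 17 and 18 genes would hold few past it, so the counts below do not set cycle genes apart. No gene of 17 of G1 to S or 18 of G2 to M passed 1.5-fold between the carrier libraries, with medians of -0.06 and -0.15, and none did with PGE2, with medians of 0.03 and 0.01. With minoxidil only Pcna did, at 0.74, and it was at 0.76 in the stroma and 0.63 in the epithelium. Mki67 and Top2a, both high in dividing cells, were lowest in the Tbx1+/+ carrier. Mki67 was at 205.5, 262.5, 272.0 and 263.9 CPM and Top2a at 416.4, 554.3, 573.6 and 593.6. After thinning, 5 or more UMIs of G2 to M genes were found in 86.6% (81.9 to 90.4), 73.8% (65.4 to 81.2), 85.9% (78.9 to 91.3) and 81.3% (74.9 to 86.7) of members, against 87.0%, 85.6%, 89.5% and 79.5% of Kit cells and 35.8%, 32.6%, 32.9% and 31.7% of stroma cells. Among members the Tbx1neo2/neo2 carrier was lowest, and its interval did not overlap that of the Tbx1+/+ carrier, where the share was highest although Mki67 and Top2a were at their lowest. Of 9 apoptosis regulators, Bcl2l11 at -0.65 and Bak1 at -0.60 were lower in the Tbx1neo2/neo2 carrier, and Bcl2l11 was higher at 0.87 with minoxidil. Of 10 genes of the interferon response and MHC class I, H2-D1 at -0.67 and Isg15 at -0.77 were lower in the Tbx1neo2/neo2 carrier. With minoxidil H2-D1 at 0.63 and Irf1 at 0.78 were higher of 9 compared, and with PGE2 Isg15 at 0.93 and Ifi27 at 0.63 of 11.

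Many of the ratios farthest from 0, among genes of at least 50 CPM, came from few cells. In the first comparison the smallest were Hba-x at -5.74 and Hbb-y at -5.19, embryonic globins of red cells, followed by Fos at -2.49, Snhg12 and Dusp1, both at -1.58. Of the 14198 Hbb-y UMIs in members of the Tbx1+/+ carrier, 97.5% were in 5 cells, and of the 12935 in PGE2, 98.4% were in 1 cell. The largest were Igfbp5 at 2.94, Hbb-bs at 2.84, Ptn at 2.58, Col3a1 at 2.11 and Ptcra at 1.39. In the Tbx1neo2/neo2 carrier 5 cells held 84.8% of the Igfbp5, 96.5% of the Hbb-bs, 78.2% of the Ptn and 69.7% of the Col3a1 UMIs. Erythroid genes summed to 2407.6, 3508.8, 429.4 and 2598.8 CPM and mesenchymal genes to 111.2, 239.3, 99.0 and 81.5, with Pdgfra at 0 by the gate and Pdgfrb the most abundant. Members with over 1% hemoglobin UMIs numbered 3, 2, 0 and 1.

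With minoxidil the largest ratios included Hist1h3b at 3.54, Nme2 at 3.44, Hist1h2ap at 2.81 and Fos at 2.23. The first 3 of these were also high in other cells, at 3.06, 3.39 and 2.78 in the stroma and 2.66, 3.41 and 2.67 in the epithelium. The smallest were Hbb-bs at -5.06, Hba-a1 at -4.64, Hba-a2 at -4.11, Igfbp5 at -3.96 and Ptn at -3.44. With PGE2 the largest were Hba-x at 6.09, Hbb-y at 5.35, Fos at 2.44, Klf4 at 1.41 and Hist1h4d at 1.40, the last at 1.51 in the stroma and 1.40 in the epithelium. The smallest were Xist at -9.42, Igfbp5 at -5.80, Ptn at -5.19, Col3a1 at -3.84 and Cdkn1c at -3.64.

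RNA of other thymic and parathyroid cells differed between libraries at low levels. Pth, the hormone of the parathyroid gland, had 114 UMIs in 95 of 270 members of the Tbx1+/+ carrier and none in the members of the other libraries. The 4 parathyroid genes summed to 15.3, 0.233, 0 and 0.107 CPM. Krt5, a keratin of medullary epithelium, had 103 UMIs in 83 members of the Tbx1+/+ carrier and 7, 38 and 27 UMIs in the others. Thymic epithelial genes summed to 118.7, 69.1, 80.0 and 79.4 CPM, with Ctsl the most abundant. Endothelial genes summed to 163.6, 73.7, 75.5 and 62.8 CPM, with Pecam1 the most abundant, at 57.4, 42.3, 43.6 and 33.5. Of the 237 Cdh5 UMIs of the Tbx1+/+ carrier 79.3% were in 1 cell. Which cells the Pecam1 RNA came from was not tested. The part of these cells in the results was not tested.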

How the data were processed

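The authors made the deposited files with Cell Ranger 5.0.1 on mm10, and they hold whole-number UMI counts per gene and cell for 27998 genes, with no normalization. Libraries held 11908, 11364, 3362 and 4471 cells and 292687940, 194023208, 151740600 and 156363845 UMIs, in the order used throughout. Counts of the members were summed per library and scaled to CPM with Python 3.11.15, numpy 2.4.6, scipy 1.17.1 and pandas 2.3.3, and alternatives used TMM factors of edgeR 4.0.16 in R 4.3.3. Ratios of a level of 0 used a floor of 3 counts per library. Scripts were tested on simulated data.

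Scrublet in scanpy 1.11.5 marked 567, 0, 70 and 75 kept cells, among them 2, 0, 1 and 0 members. It did not work in the Tbx1neo2/neo2 carrier library, and no cell was removed. Pdgfra stroma had 2 or more Pdgfra UMIs, no Ptprc and at most 1 Epcam. Epcam epithelium had 5 or more Epcam UMIs and no Ptprc or Pdgfra. Xist cells had 2 or more Xist UMIs and none of 4 Y-linked genes, and cells with Y-linked UMIs the reverse.

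Named genes were the given markers, the 5 largest and 5 smallest ratios at 50 CPM or more without gate, mitochondrial and unnamed genes, the 20 most abundant genes and members of fixed lists, of whose 350 genes 8 were not in the files used here. Tubb3, Insl5, Cd163l1 and Nlrp6 beside the Kit cells were named after their values were seen. Members and lists were chosen with earlier results of these data known. Some genes that these rules name are not reported here.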

Additional observations from a re-analysis of the deposited data

Results flagged for a closer look

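Il2ra, the CD25 chain, had ratios of opposite sign in the cells of each sex between the carrier libraries. In cells with Y-linked UMIs it was at 248.6 CPM in the Tbx1neo2/neo2 carrier and 133.6 in the Tbx1+/+ carrier, a log2 ratio of 0.90 (0.75 to 1.04). In Xist cells it was at 120.8 and 192.6 CPM, a log2 ratio of -0.67 (-0.95 to -0.40). The ratios differ by 1.57. The difference was not tested, since each library gives 1 value per sex. Over all members the ratio was 0.35, within 1.5-fold. The Tbx1neo2/neo2 carrier held 39 Xist cells and 77 cells with Y-linked UMIs, and the Tbx1+/+ carrier 58 and 174. Within one library, 143 genes were past 1.5-fold higher and 243 lower in Xist cells than in cells with Y-linked UMIs of the Tbx1neo2/neo2 carrier, 7.01% of 5509, and 2.02% of 5553 were past it in the Tbx1+/+ carrier.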

How the results depend on the processing

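Each group had 1 library, so no result has a test or a value without one replicate, and treatment and library cannot be told apart. Sex and treatment cannot be told apart beyond the values given for cells of one sex. No paired analysis was possible because each group has 1 library. The cause of the moves below was not tested. Lifting the Epcam limit, a Krt8 limit in its place, leaving out cells over 1% hemoglobin and taking cells of one sex were chosen after seeing the data.

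Values run in the order Tbx1+/+ carrier, Tbx1neo2/neo2 carrier, minoxidil and PGE2. Of kept cells, members made up 3.66%, 1.69%, 5.03% and 5.32% with 1 or more Rag1 UMIs, and 26.5%, 33.5%, 44.5% and 44.1% of Ptprc cells. With 3 or more the share of kept cells was 1.65% in the Tbx1+/+ carrier, and those of Ptprc cells 11.9%, 20.7% and 31.5% in the first 3 libraries. After thinning the shares of kept cells were 1.01%, 1.27%, 2.47% and 6.63%, which turned the order of the carrier libraries, with overlapping intervals. The thinned shares of Ptprc cells were 6.56%, 18.0%, 15.6% and 31.9%. With no Epcam limit they were 4.19%, 2.23%, 9.09% and 16.2% of kept cells and 20.1%, 33.9%, 48.5% and 61.7% of Ptprc cells, and with the Krt8 limit 3.52%, 2.14%, 8.12% and 15.4%, and 23.1%, 34.5%, 50.1% and 64.1%. With at most 5% mitochondrial UMIs they were 3.02% and 1.73% of kept cells in the carrier libraries and 28.8% of Ptprc cells in the Tbx1neo2/neo2 carrier. Without hemoglobin-rich cells the Tbx1+/+ carrier had 2.70% of kept cells. Among Xist cells the shares of kept cells were 2.65%, 4.45% and 4.88% in the first 3 libraries, which turned the order of the carrier libraries. Among cells with Y-linked UMIs they were 3.66% and 1.42% in the carrier libraries and 5.38% with PGE2. The mix of cell types among the kept cells of each sex can differ. Of Ptprc cells they were 18.5%, 19.5% and 37.5% among Xist cells, and 19.1%, 31.4% and, with PGE2, 36.5% among cells with Y-linked UMIs.

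Genes higher and lower in the 3 comparisons numbered 30 and 73, 80 and 22, and 41 and 21 at a minimum of 50 CPM. At 2-fold they numbered 26 and 46, 68 and 27, and 26 and 31. With no minimum they numbered 3749 and 1793, 1461 and 3482, and 928 and 3675. The counts with no minimum rest in part on the floor of 3 counts, which differs in CPM between libraries. Median-of-ratios factors gave 128 lower in the first comparison. Between Xist cells 224 were higher and 553 lower in the first and 409 and 145 in the second. With PGE2 47 were lower with no Epcam limit and 51 with the Krt8 limit. Of the ratios of single genes, 3868 moved by less than their interval, 657 by more, and 13 that were past 1.5-fold over all members changed sign. In the first comparison the latter were Col1a1 at -0.43 with 3 or more Rag1 UMIs, Hbb-y at 0.06 between Xist cells, and Hba-a1 at -0.60 after thinning, -0.19 with no Epcam limit and -0.21 with the Krt8 limit. With minoxidil they were Il2ra at 0.31 after thinning and 0.07 between Xist cells, and Xist at -0.51 between Xist cells. With PGE2 they were Hbb-bs at 0.24 after thinning and 0.22 without hemoglobin-rich cells, Hbb-y at -0.76 and -0.59, and Hba-x at -0.02 after thinning.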
